A study of Rattus norvegicus with 25 samples.

Results

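The 14-3-3 proteins are encoded by 7 genes in mammals, and 6 of these were examined here, namely Ywhab (beta), Ywhae (epsilon), Ywhag (gamma), Ywhah (eta), Ywhaq (theta) and Ywhaz (zeta). They were found by gene name, ignoring case, in the tables of both brain regions, where they are 6 of 26312 gene identifiers (ENSRNOG00000010945, ENSRNOG00000005290, ENSRNOG00000001436, ENSRNOG00000026119, ENSRNOG00000008104 and ENSRNOG00000008195 in that order). The family was chosen by the measured levels (TPM and expected counts) of Ywhaq and Ywhab, which differed between the stressed groups in the dentate gyrus (DG), so the DG values of the groups are given below as a description with no test. The basolateral amygdala (BLA) values did not choose the genes, although they come largely from the same animals.

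14-3-3 proteins are small acidic adaptor proteins that work as dimers and bind partner proteins at phosphorylated serine or threonine residues. By holding a phosphorylated partner they keep transcription regulators such as FOXO factors and class IIa histone deacetylases in the cytoplasm, hold the pro-apoptotic protein BAD away from mitochondria, and regulate RAF kinases, ion channels and the enzymes of monoamine synthesis for which the genes were named. In the brain they are abundant in neurons, and the isoforms can form mixed dimers.

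Wild-type adult male Sprague-Dawley rats either stayed in the home cage with a cage change (control, labelled undisturbed) or were immobilized once for 3 h in the presence of fox urine as a predator scent. All rats were handled beforehand and went through the behavioral battery, and tissue was taken on day 9 after stress. The stressed rats chosen for sequencing had composite anxiety-like behavior scores of either 0 to 2 (stress-low) or 13 to 15 (stress-high), and the controls had scores of 0 to 6. Each library is poly-A selected RNA of left-hemisphere tissue punches of 1 animal, with 7 control animals and 3 of each stress group for the BLA and 6 control animals and 3 of each stress group for the dorsal DG. In each region the control library farthest from the median on the first principal component was left out (the BLA library of animal 2 and the DG library of animal 35), which left 12 BLA and 11 DG libraries. The stress groups were selected at both ends of the score, only males were used, and punches mix all cell types of the tissue.

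A BLA library held between 12709493 and 22801247 expected counts, and a DG library between 11656439 and 19477932. In the DG the stress-low libraries held 11656439 to 15547038 counts and the stress-high libraries 16201792 to 19477932, so depth separated these groups. Prox1 and C1ql2, which mark the granule cells of the DG, had medians of 73.3 and 336 TPM (a share of all transcripts, corrected for gene length) in the DG and 2.57 and 2.81 TPM in the BLA. Of the other granule cell markers, Dsp had medians of 6.51 in the DG and 0.195 in the BLA, while Calb1 was at 105 TPM in the DG and 135 TPM in the BLA. Slc17a7, the vesicular glutamate transporter of cortical-type neurons, had medians of 1054 TPM in the BLA and 1827 TPM in the DG, so it does not mark the BLA. Of the other glutamatergic markers, Camk2a had medians of 889 and 1137 TPM, Rspo2 12.0 and 20.1, and Slc17a6 15.0 and 2.22, in the same order. The TPM of the regions may rest on different length settings, as given below. The BLA control of animal 35 is called a control by its library name and stressed by its treatment field, and was taken as a control. All stress-high animals carried a number up to 20 and all stress-low animals a number above 20, so the number and the stress group cannot be told apart among stressed rats.

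Sequence upstream of the start site is shown for Ywhaq and Ywhab, the pair that chose the family, and for Ywhah, the member with the highest correlation to Ywhaq in the DG and to Ywhab in the BLA, given below. Upstream sequences from RefSeq (build GRCr8) were matched for 5 of the 6 genes, and Ywhaz was not analysed here. The 250 bases before the start site are written in the direction of the gene, with matches to the motifs searched in capitals. The Ywhaq sequence is chr6:46694876-46695125 on the minus strand, the Ywhab sequence chr3:173078821-173079070 on the plus strand, and the Ywhah sequence chr14:81930203-81930452 on the minus strand.
Ywhaq: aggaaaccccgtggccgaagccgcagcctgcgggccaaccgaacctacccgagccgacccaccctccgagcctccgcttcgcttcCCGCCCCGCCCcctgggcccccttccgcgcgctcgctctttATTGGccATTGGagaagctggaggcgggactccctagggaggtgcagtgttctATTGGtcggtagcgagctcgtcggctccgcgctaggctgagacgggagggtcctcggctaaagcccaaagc
Ywhab: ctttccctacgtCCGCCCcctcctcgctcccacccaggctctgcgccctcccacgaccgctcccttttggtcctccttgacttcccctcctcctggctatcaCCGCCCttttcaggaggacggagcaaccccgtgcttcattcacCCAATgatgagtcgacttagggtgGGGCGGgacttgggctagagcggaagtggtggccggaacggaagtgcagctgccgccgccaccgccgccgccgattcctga
Ywhah: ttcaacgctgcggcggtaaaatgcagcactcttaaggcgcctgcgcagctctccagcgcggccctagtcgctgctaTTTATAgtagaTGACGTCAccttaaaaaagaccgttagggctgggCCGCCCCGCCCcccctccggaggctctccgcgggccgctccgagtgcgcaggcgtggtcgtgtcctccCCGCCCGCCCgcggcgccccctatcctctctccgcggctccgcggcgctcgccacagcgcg

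The letters searched on both strands were GGGCGG for the GC box, CCAAT for the box of that name, TATAAA for the TATA box, TGACGTCA for the cAMP response element (CRE), and TGACG for the CRE core, which the full CRE holds on each strand. Among 33469 rat upstream sequences of the same length, 30.5% held the GC box, 34.0% the CCAAT box, 12.9% the TATA box, 1.59% the CRE and 18.2% the CRE core. Ywhaq had 2 overlapping GC boxes and 3 CCAAT matches, and Ywhab had 3 GC boxes and 1 CCAAT match. Neither held a CRE, a CRE core or TATAAA in this window. Ywhah held the full CRE, which begins 163 bases before its start site, as well as 4 GC boxes and 1 TATAAA match on the opposite strand. Ywhae and Ywhag each held 1 CRE core, with 1 and 4 GC boxes. The GC content of the 5 sequences was 65.2% to 69.2%, against a median of 51.2% over all sequences. These matches describe the letters and say nothing of binding.

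All 6 genes were among the most abundant transcripts of both regions. Together they made up 0.483% to 0.549% of the transcripts in the BLA libraries and 0.511% to 0.609% in the DG libraries. By mean TPM, which is per length and so can be set side by side between genes, the order was Ywhah, Ywhaz, Ywhae, Ywhag, Ywhab and Ywhaq in both regions.

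In the BLA the mean level was 1364 TPM ± 70.6 (SD, n = 12) for Ywhah, 1292 ± 57.8 for Ywhaz, 848 ± 39.7 for Ywhae, 631 ± 43.3 for Ywhag, 553 ± 25.7 for Ywhab and 458 ± 31.9 for Ywhaq. In the DG it was 1659 TPM ± 130 (SD, n = 11) for Ywhah, 1380 ± 62.5 for Ywhaz, 1077 ± 28.5 for Ywhae, 685 ± 69.0 for Ywhag, 501 ± 30.8 for Ywhab and 342 ± 29.5 for Ywhaq. Ywhah and Ywhaz were neighbours whose ranges overlapped in both regions, with Ywhah higher in 11 of 12 BLA libraries and in 11 of 11 DG libraries. The ranges of Ywhag and Ywhab and of Ywhab and Ywhaq overlapped in the BLA, although Ywhag was above Ywhab and Ywhab above Ywhaq in 12 of 12 libraries, and both pairs were apart in the DG. Levels were not compared between the regions, because the effective gene lengths behind TPM may have been set differently. They lay up to 50 bases under the gene length in the BLA and up to 274 in the DG.

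By rank of mean TPM among 26312 identifiers, Ywhah was at 42 in the BLA and 46 in the DG and Ywhaq at 216 and 435. The seventh family gene, Sfn (sigma), which is known from epithelia, had at most 20.2 expected counts in a BLA library and at most 6 in a DG library at either of its 2 identifiers, while no member fell under 5143. In BLA controls the coefficient of variation of the 6 genes was 3.92% (Ywhaz) to 8.17% (Ywhaq), beside a median of 8.85% over the 175 genes with mean levels within the family's range. In DG controls it was 3.00% (Ywhaz) to 10.4% (Ywhah), beside a median of 6.71% over 390 such genes.

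**Figure D1:**
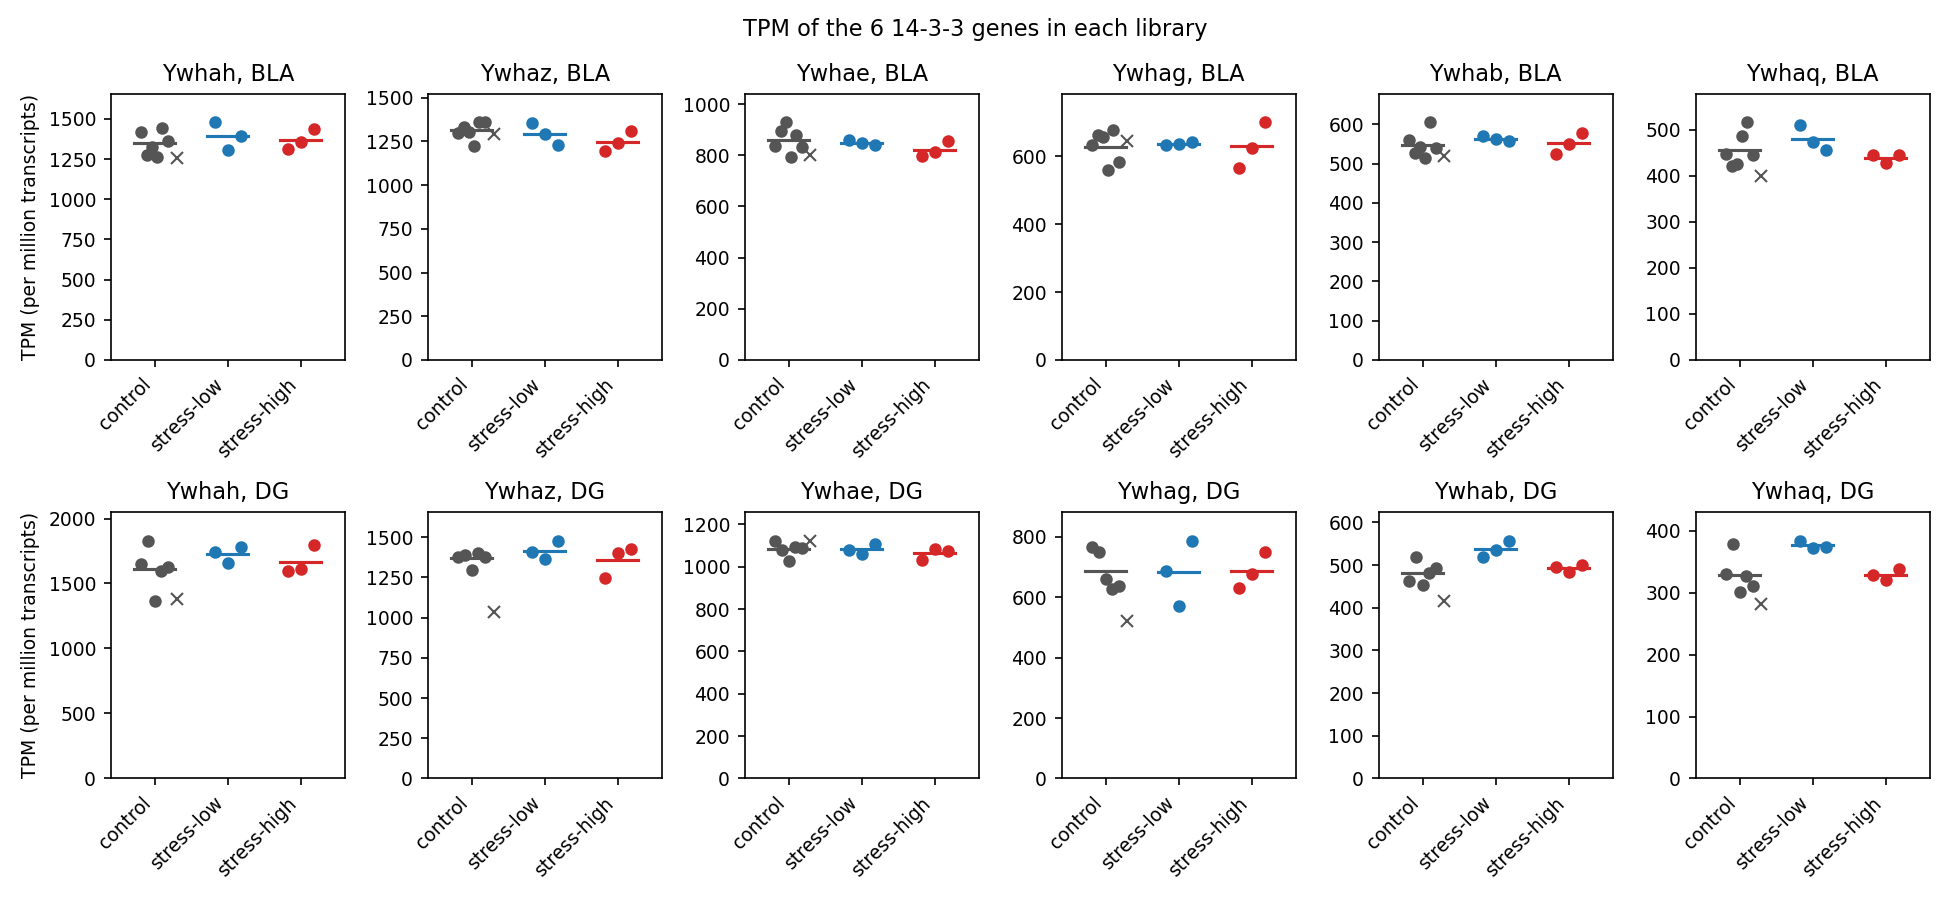
TPM of each gene (columns) in the BLA (top) and DG (bottom), with 1 point per library, a bar at the mean of each group, and a cross for the control library left out. All axes start at 0. In the DG the 3 stress-low libraries lay at 372 to 384 TPM for Ywhaq and the 3 stress-high libraries at 320 to 338.

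Ywhaq, the theta isoform, was lower in stress-high than in stress-low DG. It stood at 384, 372 and 374 TPM in the stress-low animals 22, 33 and 34 and at 329, 320 and 338 TPM in the stress-high animals 7, 19 and 20. The DG controls were at 329 (animal 2), 378 (animal 14), 302 (animal 17), 326 (animal 28) and 311 TPM (animal 32). The stress groups did not overlap, 4 of 5 controls lay below every stress-low library, and the control of animal 14 lay among the stress-low libraries.

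From stress-low to stress-high the log2 fold change of Ywhaq was -0.19 (SE 0.09), a mean TPM lower by 12.6%. From control to stress-low it was 0.20 (SE 0.08), and from control to stress-high 0.02 (SE 0.08). Single control libraries set how far the contrasts with controls went. Without animal 14 they were 0.29 and 0.09 and without animal 17 they were 0.17 and -0.02, so the sign from control to stress-high was not stable, and with animal number above 20 as a covariate it was -0.03. Each pair of these contrasts shares 1 group of libraries, so the values are not independent of each other. With animal number above 20 as a covariate the stress-low to stress-high value was -0.30. Number and group go together among stressed rats, so this covariate was estimated from DG controls alone, 3 up to 20 and 2 above 20. Without a covariate the value lay between -0.21 and -0.17 when any 1 of the 6 stress libraries was omitted.

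Ywhab, the beta isoform, was also highest in the stress-low DG, with smaller differences from the other groups than Ywhaq. It stood at 520, 536 and 558 TPM in the stress-low animals 22, 33 and 34 and at 496, 484 and 501 TPM in the stress-high animals 7, 19 and 20. The controls of animals 2, 14, 17, 28 and 32 were at 464, 520, 454, 481 and 494 TPM. The stress-low libraries lay above every stress-high library and above every control, the highest control and the lowest stress-low library being 519.8 and 519.9 TPM. The log2 fold change was -0.12 (SE 0.07) from stress-low to stress-high, 0.17 (SE 0.06) from control to stress-low and 0.05 (SE 0.06) from control to stress-high, the last being 0.10 without control animal 14 and 0.02 without control animal 17. On the log2 CPM scale, unlike in TPM, the controls overlapped with the stress-low group.

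The other 4 members showed smaller DG differences between the stress groups and from control to stress-low, and their groups overlapped in all 3 contrasts. For Ywhah, the eta isoform, the stress-low libraries were at 1739, 1656 and 1784 TPM, the stress-high libraries at 1593, 1611 and 1797 TPM and the controls at 1363 to 1830 TPM (median 1624). Its log2 fold change was 0.11 (SE 0.09) from control to stress-low and 0.06 (SE 0.09) from control to stress-high. These were 0.18 and 0.13 without control animal 14 and 0.04 and 0.0009 without control animal 17. Ywhaz, the zeta isoform, was at 1408, 1362 and 1480 TPM in stress-low and 1246, 1403 and 1430 TPM in stress-high animals, with a log2 fold change of -0.05 (SE 0.06) that was -0.09 without animal 19 and -0.01 without animal 7. Ywhae, the epsilon isoform, spread over 1028 to 1121 TPM in all 11 libraries, and its 3 log2 fold changes ran from -0.02 to 0.01. Ywhag, the gamma isoform, was at 687, 571 and 787 TPM in stress-low and 629, 676 and 750 TPM in stress-high animals, so its spread within a group was wider than any difference between groups (log2 fold change 0.01, SE 0.12). With animal number above 20 as a covariate, again estimated from controls alone, the Ywhag value was -0.21.

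Read against the rest of the table, 2 of the 6 genes had stress groups that did not overlap in DG TPM, as had 8.69% of the 14080 genes tested. From control to stress-low 1 of 6 did not overlap (3.71% of all genes), and from control to stress-high 0 of 6 (1.46%). Nothing is read from these counts, since the DG values chose the family. No DG gene passed an adjusted p of 0.05 in edgeR in any of the 3 contrasts (0.0% of genes in each), and unadjusted p was under 0.05 for 3.12% of genes between the stress groups, 6.9% from control to stress-low and 2.19% from control to stress-high.

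In bulk tissue, fewer cells of a type and less RNA per cell cannot be told apart. In the DG, 0 of 11 marker lists had summed TPM that separated stress-low from stress-high, and 0 of 11 separated control from stress-low. From control to stress-high 1 of 11 did, the oligodendrocyte progenitor markers, at 19.9 to 24.6 TPM in controls and 18.2 to 19.5 in stress-high libraries. The 9 neuronal markers summed to 5238 to 5710 TPM in stress-low, 4760 to 5451 in stress-high and 5032 to 5487 in control libraries. The 4 granule cell markers summed to 443 to 525, 475 to 591 and 455 to 732 TPM in the same order. Oligodendrocyte markers summed to 2010 to 2166, 1810 to 2170 and 1607 to 2192 TPM. Choroid plexus and ependymal markers were at 0 to 0.25 TPM in sum. Each sum is weighted to its most abundant genes, such as Mbp (median 1088 TPM) and C1ql2 (median 336 TPM). Sequencing depth did separate the DG stress groups, as given above. The part of depth or of cell composition in the Ywhaq and Ywhab values was not tested.

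In the BLA none of the 6 genes differed between groups beyond the spread of the libraries. Ywhaq stood at 510, 473 and 456 TPM in the stress-low animals 22, 30 and 34 and at 445, 427 and 445 TPM in the stress-high animals 7, 19 and 20. The 6 controls ran from 421 to 516 TPM with a median of 446. In TPM the stress groups did not overlap, but on the log2 CPM scale they did, at 9.21 to 9.42 in stress-low and 9.10 to 9.36 in stress-high. The log2 fold change from stress-low to stress-high was -0.08 (95% interval -0.29 to 0.12, edgeR adjusted p = 1). It was 0.0041 with animal number above 20 as a covariate (set by controls alone), -0.15 without animal 7 and -0.02 without animal 20. In limma on log2(TPM + 1) it was -0.13, where the median over all genes was -0.04, against -0.0006 in edgeR.

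Ywhab was at 572, 562 and 557 TPM in stress-low, 524, 551 and 579 TPM in stress-high and 514 to 606 TPM (median 540) in control BLA. Its log2 fold change was 0.0092 from stress-low to stress-high (95% interval -0.12 to 0.14, edgeR adjusted p = 1) and 0.0028 from control to stress-low (-0.11 to 0.12). All 3 groups overlapped.

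Ywhae and Ywhaz had the lowest log2 fold changes against controls. For Ywhaz the controls ran from 1224 to 1360 TPM (median 1319), the stress-low libraries from 1230 to 1356 and the stress-high libraries from 1193 to 1308, with a log2 fold change of -0.07 from control to stress-high (95% interval -0.19 to 0.04, edgeR unadjusted p = 0.205). For Ywhae the controls ran from 793 to 930 TPM (median 857) and the stress-high libraries from 796 to 857, with a log2 fold change of -0.06 (-0.17 to 0.05). Ywhag and Ywhah had log2 fold changes between -0.02 and 0.02 in all 3 contrasts.

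Over the 18 BLA values the log2 fold changes ran from -0.08 to 0.03, and the widest 95% bounds were -0.29 and 0.21, or -18.2% and 15.6% of the level. These bounds belong to single intervals of the main fit. Without animal 7 the lower bound for Ywhaq from stress-low to stress-high was -0.38. The lowest unadjusted p was 0.205 in edgeR and 0.178 in DESeq2, both for Ywhaz from control to stress-high. Of the 6 genes, 0 passed an adjusted or an unadjusted p of 0.05 in edgeR or in DESeq2 in any of these 3 BLA contrasts. Over all 15230 genes the share with adjusted p under 0.05 was 0.0% in each contrast, and the share with unadjusted p under 0.05 was 1.98% between the stress groups, 2.75% from control to stress-low and 2.57% from control to stress-high. In TPM, 1 of 6 genes did not overlap between the stress groups (5.89% of all genes), 0 of 6 between control and stress-low (1.39%) and 0 of 6 between control and stress-high (0.978%).

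**Figure D2:**
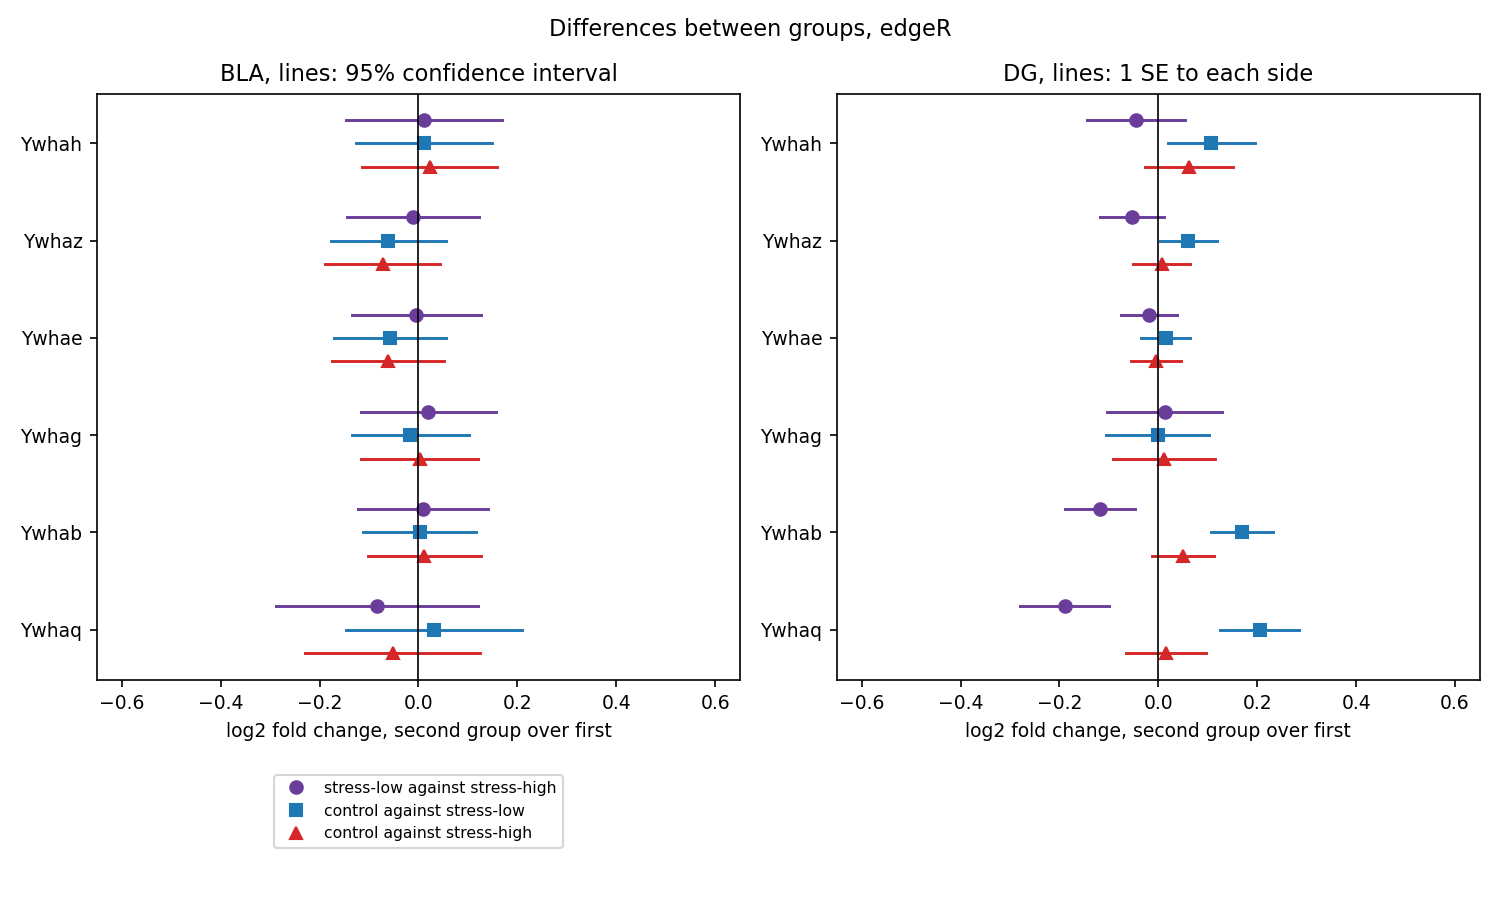
Log2 fold changes of each gene in the BLA (left) and DG (right) from edgeR fits of 3 group means, with lines for the 95% confidence interval in the BLA and for 1 SE to each side in the DG, where the values chose the genes. Points mark stress-low against stress-high (circles), control against stress-low (squares) and control against stress-high (triangles), and the second group is read over the first. In the BLA all 18 intervals include 0, and in the DG the Ywhaq value lies at -0.19 between the stress groups and at 0.20 from control to stress-low.

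The BLA leptomeningeal markers summed to 8.55 to 12.6 TPM in stress-high, below the 12.7 to 15.3 TPM of controls and the 13.3 to 15.1 TPM of stress-low libraries, and the other 10 lists overlapped between all groups there. The BLA neuronal markers summed to 4548 to 5326 TPM in controls, 4970 to 5235 in stress-low and 4565 to 5281 in stress-high libraries. Their part in the BLA values was not tested.

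In the BLA the expected counts of the 6 genes were not whole numbers in 12 or 13 of 13 libraries, as happens when RSEM divides reads between gene models, and in the DG they were whole in all 12. The BLA levels are uncertain to the extent of these shared reads. The deviations of a gene from its group mean on the TPM scale and on the log2 CPM scale had a Pearson r of 0.11 (Ywhaz) to 0.74 (Ywhaq) over the 12 BLA libraries, and of 0.75 (Ywhae) to 0.98 (Ywhaq) over the 11 DG libraries. Which of several BLA libraries is high for a gene therefore depended on the scale. Stress-high animal 7 had the lowest Ywhab value of its group in TPM (524) and the highest on the log2 CPM scale (0.05 above the group mean).

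Among controls, the library names give a low or high score label, and this contrast uses no library of the stress groups. The BLA low-score animals include animal 35 (Ywhag at 583 TPM), which is stressed by its treatment field. In BLA controls the 3 high-score animals had Ywhag at 632, 662 and 679 TPM and the 3 low-score animals at 656, 561 and 583 TPM, with a log2 fold change from low to high of 0.12 (95% interval -0.0070 to 0.24, edgeR unadjusted p = 0.0623, adjusted p = 0.997). The other 5 genes differed by 0.0053 to 0.07 there. In DG controls, with 2 low-score and 3 high-score animals, the 6 values ran from -0.04 to 0.07. Of the 6 genes, 0 passed an adjusted p of 0.05 in edgeR in either region (0.0% of BLA genes and 0.007% of 14287 DG genes), and 0 passed an unadjusted p of 0.05 (3.47% and 3.59%). In DESeq2 0 passed the adjusted threshold in either region. The unadjusted DESeq2 threshold was passed in the BLA by 1, which was Ywhag, beside 427 of all 15230 genes. In the DG it was passed by 0, beside 370 of all 14287 genes. With the left-out control included, edgeR also put BLA Ywhag past the unadjusted threshold, at a log2 fold change of 0.14 (95% interval 0.02 to 0.26, edgeR unadjusted p = 0.0259, adjusted p = 0.945). In that fit 732 of all 15311 genes were past the unadjusted threshold.

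Since animal number goes with the stress group, control levels are also given by number. In DG controls Ywhaq was at 302 to 378 TPM in the 3 animals with a number up to 20 and at 311 to 326 TPM in the 2 above 20, and Ywhab at 454 to 520 and 481 to 494 TPM. Both genes overlapped between these controls. Ywhag did not, at 661 to 764 TPM up to 20 and 626 to 637 TPM above 20. The share of all genes that did not overlap in this split of 3 against 2 libraries was not counted. Nothing is therefore read from the Ywhag values. In BLA controls all 6 genes overlapped.

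Within groups the 6 genes tended to vary together. Over the deviations of log2 CPM from the group means, which hold no group difference, the 15 pairs had a median Pearson r of 0.67 in the DG (0.39 to 0.87, 11 libraries) and 0.48 in the BLA (-0.08 to 0.88, 12 libraries). Ywhaq, Ywhab and Ywhah were among the most alike, with r of 0.84 (Ywhaq and Ywhab), 0.87 (Ywhaq and Ywhah) and 0.83 (Ywhab and Ywhah) in the DG and 0.79, 0.68 and 0.88 in the BLA. The lowest pair of each region contained Ywhag, with Ywhab in the DG (0.39) and with Ywhaq in the BLA (-0.08). The libraries share depth and normalization, which can make genes move together.

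The DG correlations among Ywhaq, Ywhab and Ywhah rest on 2 control libraries. Ywhaq stood 0.28 above its group mean in animal 14 and 0.16 below it in animal 17 on the log2 CPM scale. Control animal 32 lay 0.11 below, and the 3 stress-low and 3 stress-high libraries lay between -0.03 and 0.04. Without animals 14 and 17 the median r of the DG pairs was 0.22, and r was -0.18 for Ywhaq and Ywhab, 0.22 for Ywhaq and Ywhah and -0.17 for Ywhab and Ywhah. These 2 libraries were taken out as the farthest in Ywhaq, which narrows its range and can by itself lower r. In the BLA, without animals 27 and 28, which were farthest there, the median was 0.49 and the 3 pairs stood at 0.85, 0.72 and 0.85. On the TPM scale r of Ywhaq and Ywhab was 0.66 in the DG and 0.48 in the BLA.

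**Figure D3:**
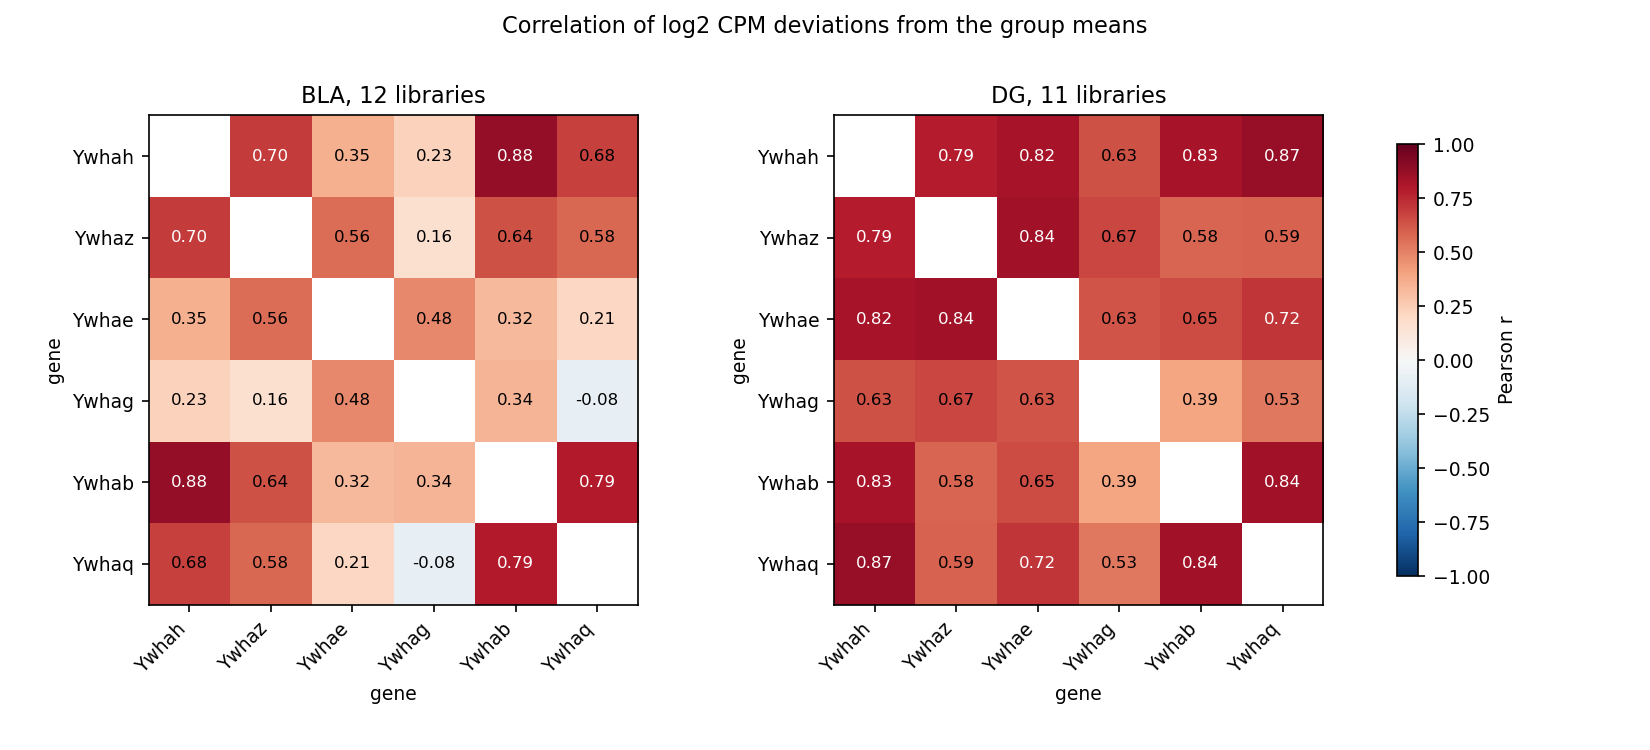
Pearson r between the deviations of log2 CPM from the group means for each pair of genes, in the BLA (left, 12 libraries) and DG (right, 11 libraries), with color from -1 (blue) to 1 (red). Ywhaq, Ywhab and Ywhah had r of 0.83 to 0.87 with each other in the DG, and the lowest value of each region belongs to a pair with Ywhag.

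**Figure D4:**
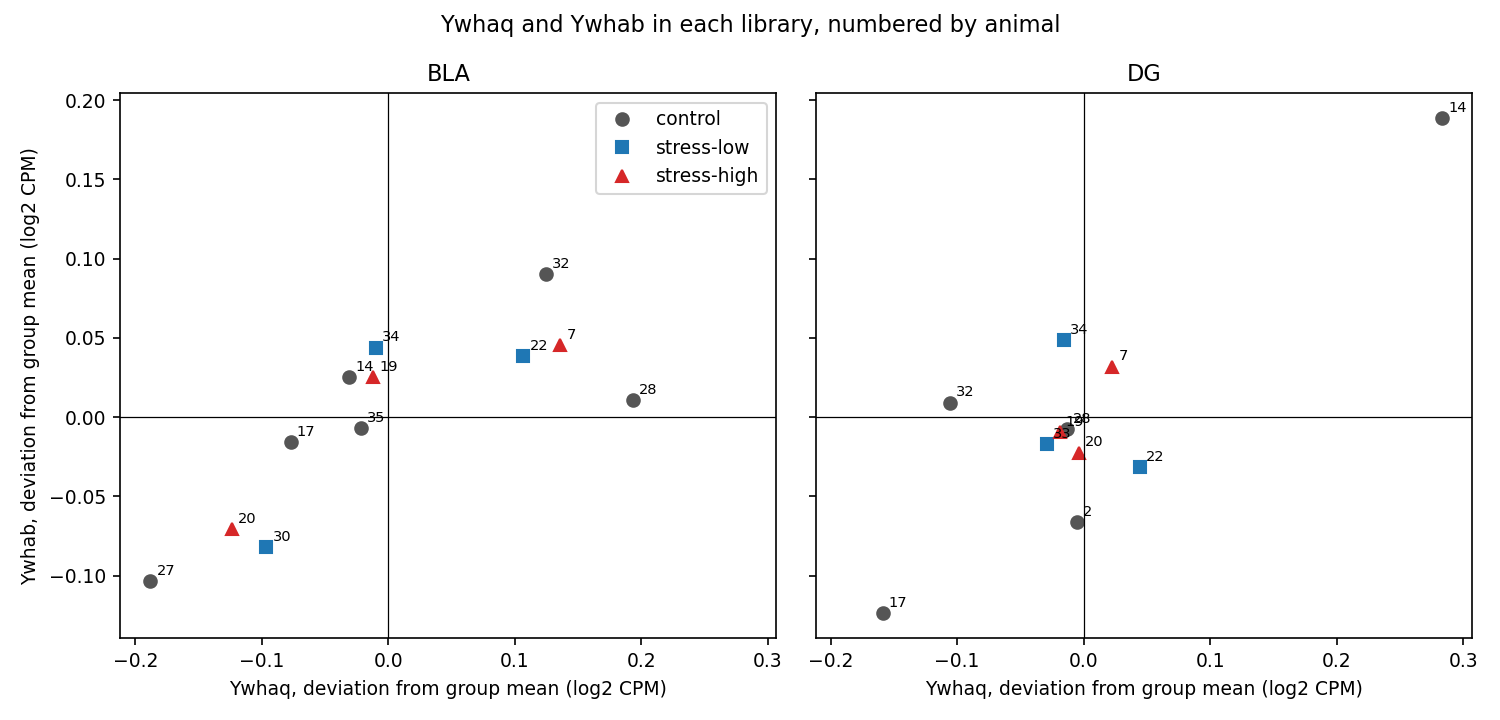
Deviation of Ywhab (vertical) against Ywhaq (horizontal) from the group mean in log2 CPM, with 1 point per library, numbered by animal and marked by group. In the DG (right) animals 14 and 17 lie at the ends and the other 9 libraries show no common direction, with r of -0.18, whereas in the BLA (left) r was 0.79 over 12 libraries.

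A gene's deviation in 1 region and in the other were compared within animals, and the 6 correlations had mixed signs. Over the 9 animals used in both regions, r between the BLA and DG deviations was -0.04 for Ywhaq, 0.31 for Ywhab, 0.42 for Ywhah, 0.17 for Ywhag, -0.44 for Ywhae and -0.57 for Ywhaz.

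By the same measure, the named genes outside the family most like Ywhaq in the DG were Sfrp1 (r = 0.95), Ola1 (0.94), Stx12 (0.94), Lipa (0.93) and Tstd3 (0.93), and those most like Ywhab were Cct8 (0.97), Rad23b (0.97), C1galt1c1 (0.95), Ccnc (0.95) and Glce (0.95), over 11 libraries. In the BLA they were B3galnt1 (0.98), Cab39l (0.98), Chtop (0.96), Skp1 (0.95) and Arl8b (0.94) for Ywhaq and Nap1l4 (0.93), Homer1 (0.93), Ipo5 (0.92), Pja2 (0.91) and Cyb5d2 (0.91) for Ywhab, over 12 libraries. No gene appeared in 2 of these 4 lists of 5. The genes were picked as the highest among all tested genes with a name. The DG values include control animals 14 and 17, and Sfrp1 was at a mean of only 2.48 TPM there. With so few libraries such values are a description of these libraries.

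The proteins that 14-3-3 proteins bind were followed in a list of 51 partner genes, of which 51 were tested in the BLA and 50 in the DG, and in a list of 15 kinases that phosphorylate 14-3-3 binding sites, all tested. None passed an adjusted p of 0.05 in edgeR in any of the 6 contrasts, and the median log2 fold change of the partners lay between -0.04 and 0.03, against medians of -0.0037 to 0.0011 over all genes.

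In the DG, unadjusted p was under 0.05 from stress-low to stress-high for 2 partners with a positive log2 fold change and 0 with a negative one, beside 3.12% of all genes. These were Hdac5, a class IIa histone deacetylase held in the cytoplasm by 14-3-3 proteins, at 42.8 ± 1.69 TPM in stress-low and 50.5 ± 2.32 in stress-high (SD, n = 3 each, log2 fold change 0.25, SE 0.07, edgeR adjusted p = 0.9996), and Ksr1, a scaffold of the RAF pathway, at 35.6 ± 1.36 and 41.8 ± 1.39 TPM (0.24, SE 0.10). From control to stress-low the unadjusted threshold was passed by 2 partners with a positive and 2 with a negative value, beside 6.9% of all genes, with the smallest p for Hdac5 (-0.18, SE 0.06), Crtc1, a CREB coactivator (-0.15, SE 0.05), and Lrrk2, a kinase (0.15, SE 0.06; edgeR adjusted p = 0.718 each). Both fits share the stress-low libraries. From control to stress-high 0 partners and 0 kinases had unadjusted p under 0.05. Of the 15 kinases, 3 were under 0.05 from control to stress-low, namely Akt2 (-0.17, SE 0.06), Akt1 (-0.14, SE 0.06) and Sgk1, a kinase induced by glucocorticoids (0.30, SE 0.14), with an edgeR adjusted p of 0.718 each, and 0 were under 0.05 between the stress groups.

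In the BLA, 2 partners were under an unadjusted p of 0.05 from stress-low to stress-high, beside 1.98% of all genes. Adam22, a synaptic protein that binds LGI1, had a log2 fold change of 0.18 (SE 0.07) and Hdac4, another class IIa histone deacetylase, 0.19 (SE 0.09), with an edgeR adjusted p of 1 for both. The same threshold was passed from control to stress-low by 2 partners, beside 2.75% of all genes, namely Irs2, an adaptor of the insulin receptor (-0.16, SE 0.07), and Hdac4 (-0.18, SE 0.08), with an edgeR adjusted p of 0.9998 for both. From control to stress-high it was passed by 2, beside 2.57% of all genes, namely Rgs3, a regulator of G protein signaling whose name has 2 identifiers (0.23, SE 0.07), and Adam22 (0.14, SE 0.06), with an edgeR adjusted p of 1 for both. Of the kinases, Camk4 was under 0.05 between the stress groups (0.22, SE 0.09, edgeR adjusted p = 1), Akt2 from control to stress-low (-0.17, SE 0.07, edgeR adjusted p = 0.9998) and 0 from control to stress-high.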

How the data were processed

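Bulk poly-A RNA-seq of left BLA and DG punches was used as deposited, with samples grouped by the labels. Read alignment by the authors (STAR 2.6.0a, Rn5 with an Ensembl annotation) was followed by gene quantification in RSEM 1.3.1. The deposited expected count is RSEM's estimate of a gene's reads, and the deposited TPM, length and effective length are other columns of the same tables. After rounding to whole numbers, these estimates were compared in edgeR 4.0.16 under R 4.3.3 (TMM, filterByExpr minimum count 10, quasi-likelihood, 3 group means per region, Benjamini-Hochberg over all genes tested, threshold 0.05), in 15230 BLA and 14080 DG genes. Controls by score label used 4 means. P-values set a difference of group means against the spread between animals, which was estimated jointly for the groups of a fit. Alternatives were DESeq2 1.42.0, RLE factors, no filter, 2 groups only, all libraries, a replicate block, animal number above 20 as a covariate, limma 3.58.1 on log2(TPM + 1) or log2(TPM + 0.1) with a mean TPM of at least 0.5 or no filter, gene models summed, and leaving out 1 library. The 6 genes, the partner and marker lists and the rule for named genes (all 6 genes and Sfn, up to 3 list genes with the smallest unadjusted p under 0.05 per comparison, and the 5 genes most alike) were chosen with earlier results of these data known. The tests were tried on simulated counts. Sequences are from RefSeq (GRCr8), whose build differs from that of the counts.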

Additional observations from a re-analysis of the deposited data

Results flagged for a closer look

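One library stood far from the others of its group. Ywhaz in the DG control of animal 17 was at 1299 TPM, while the other 4 controls lay between 1380 and 1405 TPM, a gap of 0.768 of the whole range against a critical value of 0.710 in Dixon's test. The groups tested were 12 (6 genes in the controls of 2 regions), and chance flags about 1 in 20 groups. The same animal was the lowest of the 5 DG controls for 5 of the 6 genes, also for Ywhab (454 TPM), Ywhae (1028 TPM), Ywhah (1363 TPM) and Ywhaq (302 TPM), and Ywhag was the exception.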

How the results depend on the processing

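In the BLA contrasts and the controls by score label, the number of the 6 genes with adjusted p under 0.05 was 0 under each alternative run. The replicate numbers did not pair the samples (r of same-numbered libraries -0.126 to 0.0725 in the BLA and -0.185 to 0.111 in the DG). With a replicate block the number called in the BLA was 0 and the DG stress-low to stress-high value of Ywhaq was -0.19. The animal number covariate was estimated from the controls of each region alone. Small BLA log2 fold changes reversed, with no cause tested. From control to stress-high, Ywhag was -0.0565 with animal number as a covariate, -0.0126 with the block and -0.0099 without animal 35, and Ywhaq 0.0069 with animal number. From control to stress-low, Ywhab was -0.0055 with the block and Ywhag 0.0074 with all libraries, 0.0137 with animal number and 0.0229 in limma. From stress-low to stress-high, limma gave -0.0324 for Ywhab, -0.0214 for Ywhag and -0.0269 for Ywhah, and animal number -0.0702 for Ywhag, -0.0054 for Ywhah and 0.0041 for Ywhaq. In limma on log2(TPM + 1) the median over all BLA genes was itself -0.0378 there, against -0.0006 in edgeR. From control to stress-low it was 0.0355, against -0.0020 in edgeR. In DG controls by score label, all libraries gave 0.0354 for Ywhag, -0.0089 for Ywhah and 0.0288 for Ywhaz.

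Leaving out 1 library gave, from control to stress-high in the BLA, -0.0107 to 0.0466 for Ywhab, -0.0099 to 0.0308 for Ywhag, -0.0062 to 0.0566 for Ywhah and -0.1234 to 0.0076 for Ywhaq. From control to stress-low it gave -0.0193 to 0.0428 for Ywhab, -0.0526 to 0.0224 for Ywhag, -0.0429 to 0.0911 for Ywhah and -0.0237 to 0.0787 for Ywhaq. From stress-low to stress-high it gave -0.0308 to 0.0441 for Ywhab, -0.0447 to 0.0349 for Ywhae, -0.0198 to 0.0553 for Ywhag, -0.0688 to 0.0652 for Ywhah and -0.0482 to 0.0343 for Ywhaz. In controls by score label it gave -0.0283 to 0.0399 for Ywhae, -0.0816 to 0.1111 for Ywhaq and -0.0213 to 0.0602 for Ywhaz in the BLA, and -0.0162 to 0.1401 for Ywhab, -0.0872 to 0.0038 for Ywhae, -0.1463 to 0.1416 for Ywhag, -0.1428 to 0.1265 for Ywhah, -0.1199 to 0.1132 for Ywhaq and -0.0772 to 0.0273 for Ywhaz in the DG.

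DG contrasts with controls, given without a test, also changed sign. From control to stress-high, Ywhaq ranged from -0.0216 to 0.0933 leaving out 1 library and was -0.028 with animal number, Ywhae was 0.0066 with the block, Ywhag -0.0754 with animal number and Ywhaz -0.0135 in limma. The limma median over all DG genes was -0.0157 in that contrast, against 0.0011 in edgeR. Ywhae was -0.0426 with all libraries and Ywhag 0.1391 with animal number from control to stress-low. Between the stress groups Ywhag was -0.2146 with animal number and -0.1035 to 0.1233 leaving out 1 library.

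Over all genes, adjusted p under 0.05 was reached in DESeq2 by 0 genes in the BLA stress-low to stress-high contrast, 1 from control to stress-low, 1 from control to stress-high and 3 in controls by label, and in the DG by 3, 4, 1 and 5. Fitting only the 2 groups gave 1 BLA gene from control to stress-high. In the BLA, limma on log2(TPM + 1) gave 1 from control to stress-low, with a pseudocount of 0.1 it gave 2 there and 2 between the stress groups, and with no filter 1 between the stress groups and 2 from control to stress-high. In DG controls all libraries gave 0. Leaving out 1 library gave 0 to 1 in the BLA and 0 in DG controls. Chosen after seeing the data were correlations on TPM, correlations without the 2 libraries farthest in Ywhaq (DG median 0.22 instead of 0.67) and these counts over all genes.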
